A study of Mus musculus with 6 samples.

Results

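The germ line depends on proteins that bind messenger RNA and decide when it is translated. The messages of 10 such regulators were followed in the testes of mice exposed to atrazine (ATZ), a herbicide, and of control mice: Dazl, Boll, Ybx2, Elavl1, Cpeb1, Celf1, Pabpc1, G3bp1, G3bp2 and Msi1. They were taken by name, as regulators of translation or storage of RNA in germ cells, with earlier results of these data known. The array annotation gives these 10 symbols to 11 of the 23521 probe sets with a single gene symbol, and the probe set with the highest mean over the 6 arrays stood for each gene. The 10 genes are among 22180 genes measured in this way. G3bp2 was the only gene of the 10 with a further annotated probe set.

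Whole testes were taken from C57BL/6J mice, 10 weeks old in both groups, and their RNA was hybridised to Affymetrix Mouse Gene 2.0 ST arrays. There were 3 ATZ-treated and 3 control samples. Treated males had 100 mg/l of ATZ in their drinking water for 3 weeks, close to 25 mg/kg per day, and then 2 weeks without it, so that germ cells present at the start of exposure could pass through a full round of spermatogenesis. The control samples came from mice without ATZ. The labels do not say whether a sample was 1 animal or a pool, so p-values measure the spread between these samples. Values are log2 intensities made by robust multi-array average (RMA), and a change is the ATZ mean minus the control mean on that scale. The array medians lay between 6.60 and 6.69, and the number of arrays, 3 per group, limits the precision. Markers of the germ line were read clearly in all samples: over 5 markers of elongating spermatids the mean log2 value was 12.9 to 13.0 on every array. Over 3 markers of epididymal epithelium, a tissue that a clean dissection leaves behind, it was 5.05 to 5.22.

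In a maturing male germ cell transcription stops before the cell is complete, since the chromatin of the spermatid is packed with protamines. Messages for the late steps are therefore made early, kept in ribonucleoprotein particles without being translated, and released to ribosomes when their product is needed. Proteins of the DAZ family, cytoplasmic polyadenylation factors, Y-box proteins and poly(A)-binding proteins act on this store. An array measures the amount of the message of such a protein. It does not measure the protein, nor the translation of its targets.

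At the probe sets that stood for these genes, no difference between ATZ-treated and control testes passed any of the thresholds given below. The log2 changes of the 10 genes ran from -0.21 for G3bp1 to 0.027 for Pabpc1, with a median of -0.077, and the groups overlapped for every gene. By the moderated test of limma, 0 of the 10 had an adjusted p under 0.05, and the share of all 41345 probe sets with such a value was 0.0%. At an unadjusted p under 0.05 there were 0 of 10, against 4.0% of all probe sets. A fold of 1.5 with an unadjusted p under 0.05 was met by 0 of 10 and by 1.01% of all probe sets, and values of the groups without any overlap were seen for 0 of 10 and for 7.48%. The adjusted p was 0.998 for each of the 10 genes, and the unadjusted p ran from 0.122 to 0.868.

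The intervals say how large a change could have been missed. The 95% intervals of the fold change reached down to 0.714 at the lowest and up to 1.17 at the highest, so all 10 lay inside a change of 1.5-fold in either direction. Among all genes 87.2% had an interval that narrow. All 10 intervals included no change, so the changes measured for these genes could not be told from none with 3 arrays per group. The mean of each of the 10 genes exceeded the median over the array, so a filter on dim probe sets removed 0 of the 10. Pabpc1 and Cpeb1 came closest to that median, with ATZ means of 7.35 and 7.47. The median is not a detection limit, and how well these probe sets read their genes was not tested. In a whole testis, fewer cells of a type and less RNA per cell cannot be told apart, and the same holds for a rise in one cell type that offsets a fall in another.

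**Figure D1:**
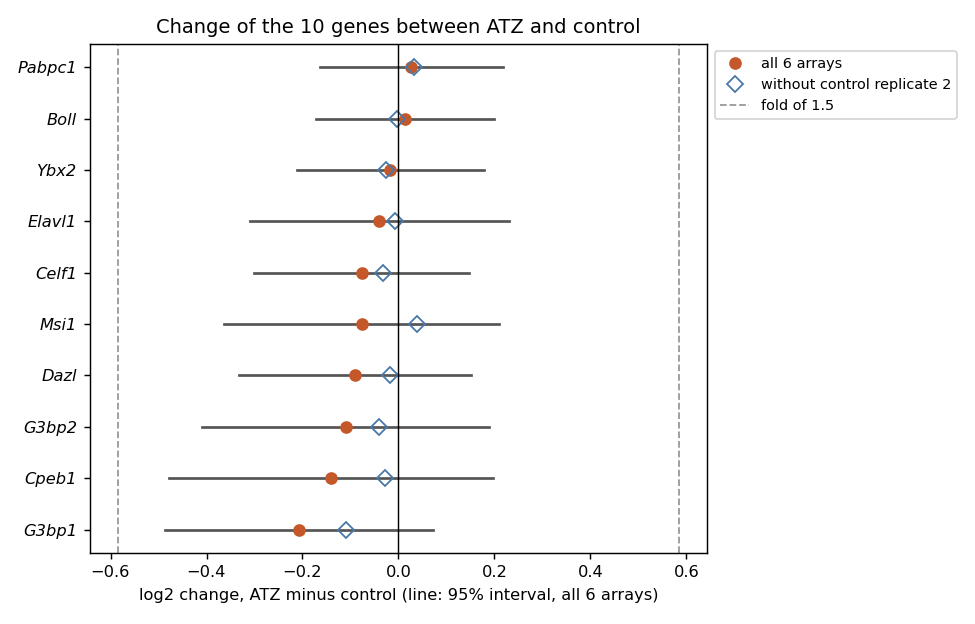
Log2 change between ATZ-treated and control testes (x axis) for the 10 genes (y axis), with filled circles for all 6 arrays, lines for their 95% intervals and open diamonds for the change without control replicate 2. Every interval crosses 0 and ends short of the dashed lines at a fold of 1.5, and the open diamonds lie between -0.11 and 0.04.

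Dazl, Boll and Ybx2 are the members whose messages belong to the germ line. Dazl, an autosomal member of the DAZ family, binds untranslated regions of its targets, recruits poly(A)-binding protein and is needed for germ cells to form and enter meiosis. Its log2 value was 11.81, 11.83 and 11.74 on ATZ arrays 1, 2 and 3 and 11.87, 12.03 and 11.75 on control arrays 1, 2 and 3. The ATZ values sat close together, with ATZ replicate 3 the lowest and control replicate 2 the highest of the 6 arrays, and the groups overlapped. The change was -0.09 (SE 0.10, interval -0.33 to 0.15), with -0.017 without control replicate 2 and -0.16 without control replicate 3.

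Boll, the relative of Dazl used from meiosis onward and needed in mice for spermatids to mature, was the steadiest of the 10 genes. Its log2 value was 11.89, 11.85 and 11.89 with ATZ and 11.90, 11.83 and 11.86 in control. All 6 values fell within 0.07, and the change was 0.013 (interval -0.17 to 0.20). Ybx2, the germ cell Y-box protein that coats and stores messages of spermatocytes and spermatids, measured 12.58, 12.65 and 12.70 with ATZ and 12.64, 12.64 and 12.70 in control. The highest value of both groups was the same, and the change was -0.017 (interval -0.21 to 0.18).

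Cpeb1 and Pabpc1 act at the poly(A) tail. Cpeb1 binds the cytoplasmic polyadenylation element and, in mouse germ cells, is needed for translation of synaptonemal complex messages. Its log2 value was 7.45, 7.47 and 7.48 with ATZ and 7.67, 7.83 and 7.32 in control. The 3 ATZ values spanned far less than the control values (SD 0.015 against 0.26) and lay between control replicate 3, the lowest array, and the other two. No other gene of the 10 had a range as wide, 0.51 over the 6 arrays. The change was -0.14 (SE 0.14, interval -0.48 to 0.20), and it depended on which control array was read: it was -0.028 without control replicate 2 and -0.28 without control replicate 3.

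Pabpc1, the general cytoplasmic poly(A)-binding protein that joins the tail to the translation initiation complex, measured 7.32, 7.37 and 7.37 with ATZ and 7.27, 7.34 and 7.37 in control. The ATZ values lay within the span of the control values. Its change of 0.027 (interval -0.16 to 0.22) was the highest of the 10.

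Elavl1 and Celf1 bind different kinds of message element. Elavl1, also called HuR, binds AU-rich elements and mostly protects the messages that carry them. Its log2 value was 11.90, 11.69 and 11.61 with ATZ and 11.83, 11.84 and 11.65 in control. The highest and the lowest of the 6 arrays were both ATZ arrays, and the change was -0.04 (interval -0.31 to 0.23). Celf1 binds GU-rich elements, promotes decay of messages and takes part in splicing, and male mice without it have impaired spermatogenesis. It measured 10.00, 9.92 and 10.03 with ATZ and 10.09, 10.15 and 9.94 in control, where the groups overlapped through control replicate 3. The change was -0.077 (interval -0.30 to 0.15), with -0.032 without control replicate 2 and -0.14 without control replicate 3. Leaving out ATZ replicate 2 gave -0.045.

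**Figure D2:**
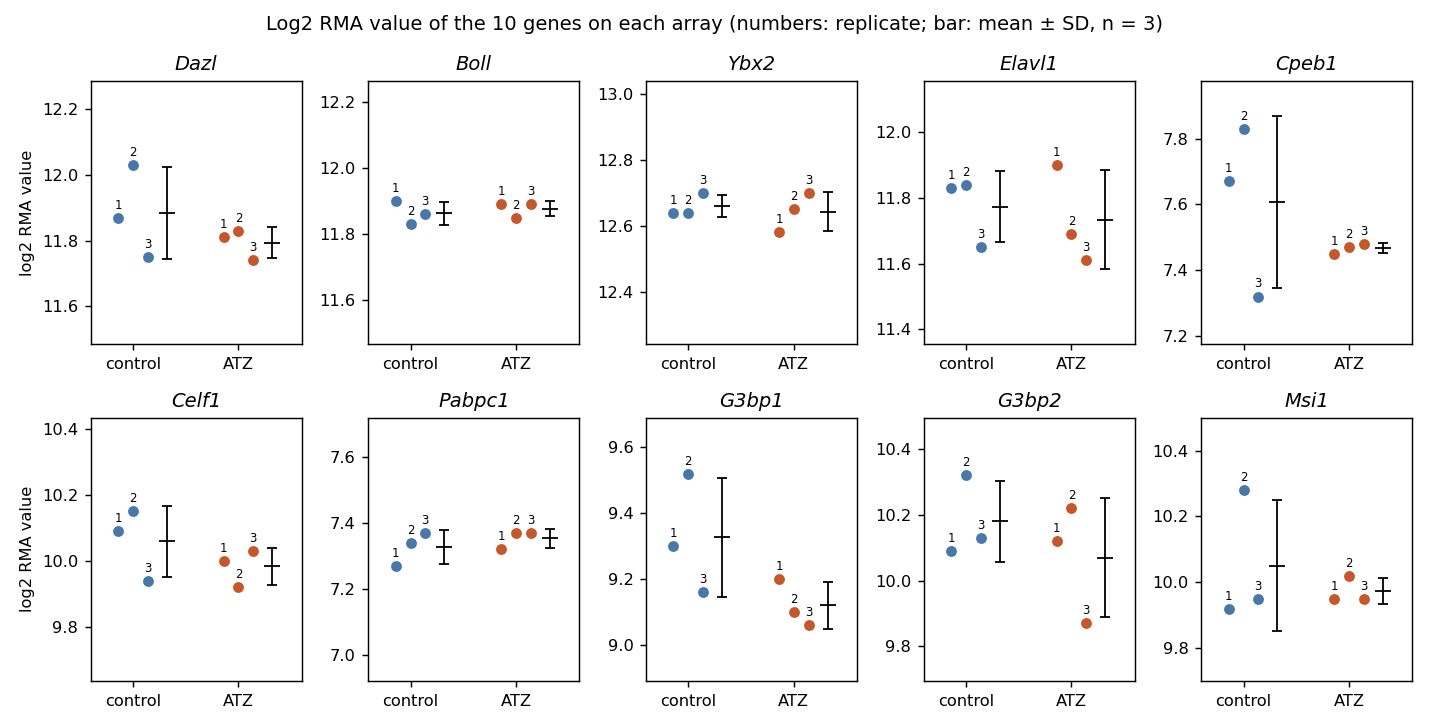
Log2 RMA value (y axis) of each of the 10 genes on the 3 control and the 3 ATZ arrays (x axis), with points for arrays, their replicate numbers above them, and bars for the mean and SD of each group. Each panel has its own axis of the same span, and control replicate 2 is the top point for Dazl, Cpeb1, Celf1, G3bp1, G3bp2 and Msi1.

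G3bp1 and G3bp2 are related RNA-binding proteins that nucleate stress granules, the cytoplasmic bodies in which cells under stress hold messages whose translation has stalled. G3bp1 had the lowest change of the 10 genes. Its log2 value was 9.20, 9.10 and 9.06 with ATZ and 9.30, 9.52 and 9.16 in control. ATZ was lower in 8 of the 9 pairs of an ATZ and a control array, and the exception was ATZ replicate 1 against control replicate 3. The group means were 9.12 ± 0.072 (SD, n = 3) and 9.33 ± 0.18 (SD, n = 3). The change was -0.21 (SE 0.12, interval -0.49 to 0.07), a fold of 0.867, with a two-sided exact permutation p of 0.2 where 0.1 is the smallest that 3 against 3 arrays allow. Without control replicate 2 it was -0.11. Without control replicate 3 it was -0.29. By limma G3bp1 then had an unadjusted p of 0.0499 and Cpeb1 of 0.0334, with an adjusted p of 0.834 for both. The share of all probe sets with an unadjusted p under 0.05 in that fit was not counted.

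G3bp2, at the annotated probe set with the higher mean, measured 10.12, 10.22 and 9.87 with ATZ and 10.09, 10.32 and 10.13 in control. ATZ replicate 3 was the lowest array and control replicate 2 the highest, and the change was -0.11 (interval -0.41 to 0.19). It was -0.01 without ATZ replicate 3, -0.04 without control replicate 2 and -0.19 without ATZ replicate 2. The other annotated probe set of G3bp2 measured 6.44, 6.77 and 6.32 with ATZ and 6.32, 6.58 and 6.35 in control. Replicate 2 was the highest array of each group there, and the change was 0.093 (interval -0.25 to 0.44), opposite in sign to the first. Both intervals crossed 0.

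A further probe set, with no symbol in the array annotation, was given to G3bp2 by the study, which picked it for its difference between these same arrays. The study also reports qPCR of differing genes, with primers listed for G3bp2, and a change of the histone mark H3K4me3 at its start. Neither was examined here. On these arrays the values of the probe set are therefore a description and support nothing about G3bp2. They were 9.73, 9.81 and 9.96 with ATZ and 9.45, 8.70 and 9.42 in control. All ATZ values were above all control values, and control replicate 2, the highest control array at both annotated probe sets, was the lowest array here, 0.97 below the mean of the other 5. The change was 0.64, a fold of 1.56, and it was 0.40, a fold of 1.32, without control replicate 2. The positions of the probes were not used here, so whether the 3 probe sets read the same transcripts was not tested.

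**Figure D3:**
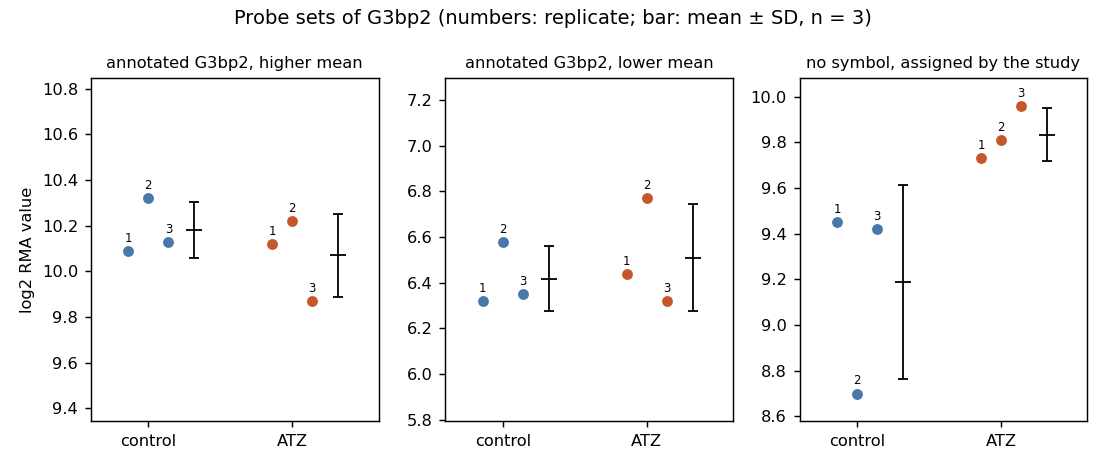
Log2 RMA value (y axis) on the 3 control and 3 ATZ arrays (x axis) for the 2 probe sets annotated to G3bp2 and the probe set without a symbol that the study assigned to it, with points for arrays, replicate numbers above them, and bars for mean and SD. The groups overlap in the first 2 panels, while in the last the ATZ values of 9.73 to 9.96 lie above the control values of 8.70 to 9.45, with control replicate 2 lowest.

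RefSeq gives G3bp2 several transcription starts, and the 2 upstream regions printed here lie 54127 bases apart, so transcripts of this gene begin in distant places. They are shown because the probe sets of this gene gave changes of opposite sign. No probe set was tied to a start, and a part of the starts in these signs was not tested. Beside the 2 G3bp2 regions stand that of G3bp1, the gene with the lowest change, and that of Dazl, a germ line member. Each holds 250 bases before and 50 after a start, written 5′ to 3′ on the strand of the gene, from RefSeq on build GRCm38.p6. Capitals mark matches on either strand to the E2F motif (TCCCGC), the E-box (CACGTG), the cAMP response element (TGACGTCA), the GC box (GGGCGG), the CCAAT box (CCAAT) and the TATA box (TATAAA), and overlapping matches run together.
Dazl, chr17:50293571-50293870, minus strand: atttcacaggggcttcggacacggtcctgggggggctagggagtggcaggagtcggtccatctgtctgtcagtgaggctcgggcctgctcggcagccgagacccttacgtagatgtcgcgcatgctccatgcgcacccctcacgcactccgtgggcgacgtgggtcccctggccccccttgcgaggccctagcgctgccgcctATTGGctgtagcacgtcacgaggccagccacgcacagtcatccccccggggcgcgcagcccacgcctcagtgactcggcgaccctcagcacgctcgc
G3bp1, chr11:55469502-55469801, plus strand: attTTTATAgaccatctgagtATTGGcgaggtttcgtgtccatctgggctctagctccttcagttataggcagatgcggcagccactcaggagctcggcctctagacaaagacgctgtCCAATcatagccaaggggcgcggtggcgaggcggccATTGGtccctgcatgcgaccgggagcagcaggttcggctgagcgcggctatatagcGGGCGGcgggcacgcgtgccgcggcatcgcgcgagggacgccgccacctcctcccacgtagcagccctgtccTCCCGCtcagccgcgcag
G3bp2, distal start, chr5:92137676-92137975, minus strand: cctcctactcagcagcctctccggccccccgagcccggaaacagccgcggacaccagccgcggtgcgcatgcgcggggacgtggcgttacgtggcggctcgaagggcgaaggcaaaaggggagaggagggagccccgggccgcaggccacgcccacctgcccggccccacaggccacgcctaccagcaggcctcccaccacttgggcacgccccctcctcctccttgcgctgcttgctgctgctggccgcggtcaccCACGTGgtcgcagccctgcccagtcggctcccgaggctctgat
G3bp2, proximal start, chr5:92083549-92083848, minus strand: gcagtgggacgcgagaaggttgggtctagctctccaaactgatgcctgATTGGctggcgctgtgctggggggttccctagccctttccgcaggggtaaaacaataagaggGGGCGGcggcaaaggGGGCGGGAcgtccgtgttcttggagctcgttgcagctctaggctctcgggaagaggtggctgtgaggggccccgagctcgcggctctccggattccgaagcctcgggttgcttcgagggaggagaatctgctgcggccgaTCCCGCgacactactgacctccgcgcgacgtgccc

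The distal region of G3bp2 held 1 E-box and no other of these motifs. The proximal region held 2 E2F motifs, 2 GC boxes and 1 CCAAT box, where 1 E2F motif and 1 GC box overlap. G3bp1 had 1 E2F motif, 1 GC box, 3 CCAAT boxes and 1 TATA box, and Dazl had 1 CCAAT box. Such short motifs are common: of 32851 RefSeq start regions of this length 19.98% held the E2F motif, 7.15% the E-box, 35.7% the GC box, 37.4% the CCAAT box and 13.6% the TATA box. The cAMP response element was in 1.79% of them and in none of the 12 regions of the 8 members with one. All 4 printed regions were rich in CpG, with 28 CpG in Dazl, 30 in G3bp1, and 29 and 26 in G3bp2, against a median of 7 over all start regions. A match to letters is not a measured site, and no binding or methylation was measured on these arrays.

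Msi1, a Musashi protein that represses translation of its targets in stem and progenitor cells, measured 9.95, 10.02 and 9.95 with ATZ and 9.92, 10.28 and 9.95 in control. Control replicate 2 stood 0.32 above the mean of the other 5 arrays, which themselves lay close together. The change was -0.077 (interval -0.36 to 0.21) with all arrays and 0.038 without control replicate 2.

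Control replicate 2 thus recurred across the members. It was the single highest array for 6 of the 10 genes, Dazl, Cpeb1, Celf1, G3bp1, G3bp2 and Msi1, while it was so for 25.1% of all genes. Without it the median change of the 10 genes was -0.022, where it was -0.077 with all arrays, and 8 of the 10 changes were smaller in size. The 2 exceptions were Ybx2 and Pabpc1. Changes below 0 were seen for 8 of the 10 genes with all arrays, against 50.8% of all genes, and again for 8 of the 10 without control replicate 2. Boll was lowest on that array. The SD was larger among control arrays than among ATZ arrays for 7 of the 10 genes, against 51.7% of all genes.

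Markers of several cell types moved with that array. Relative to each gene's mean over the 6 arrays, the median deviation on control replicate 2 was 0.16 for the 10 genes, 0.27 for 6 markers of spermatogonia, 0.25 for 6 of Sertoli cells, 0.39 for 4 of Leydig cells, 0.24 for 4 of peritubular cells, 0.31 for 4 of leukocytes and 0.34 for 3 of endothelial cells. It was -0.038 for 5 markers of spermatocytes, -0.068 for 5 of round spermatids and -0.03 for 5 of elongating spermatids. This array was the single highest for 6 of 6 Sertoli, 4 of 4 Leydig, 4 of 4 peritubular and 3 of 3 endothelial markers. It was so for 3 of 4 leukocyte, 4 of 6 spermatogonial, 1 of 5 spermatocyte and 0 of 10 spermatid markers. The mean log2 value over the Sertoli markers was 9.70 on control replicate 2 and ran from 9.30 to 9.47 on the other arrays. For the spermatogonial markers it was 8.23 there and ran from 7.85 to 7.99 elsewhere. Other arrays deviated too. On control replicate 3 the median was -0.37 for peritubular and -0.33 for leukocyte markers, but 0.063 for spermatocyte and for elongating spermatid markers and 0.20 for epididymal ones. On ATZ replicate 3 it was -0.32 for endothelial and -0.17 for Sertoli markers. The part of these cell types in the values of the 10 genes was not tested.

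**Figure D4:**
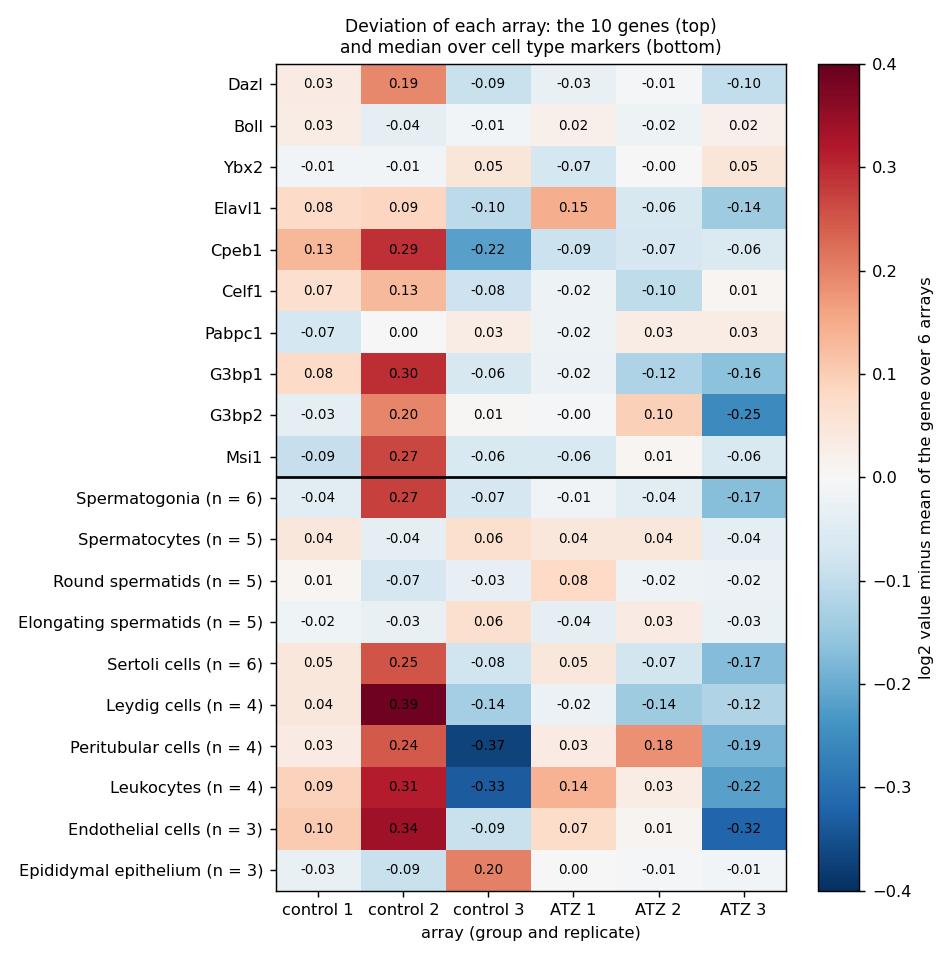
Log2 value minus the gene's mean over the 6 arrays (colour and printed value) for the 10 genes, and its median over the markers of each cell type (rows), on each array (columns). Control replicate 2 is high for Cpeb1, G3bp1 and Msi1 and for the spermatogonial, Sertoli, Leydig, peritubular, leukocyte and endothelial markers, with medians of 0.24 to 0.39, and near 0 for spermatocyte and spermatid markers.

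Relatives of the members were measured beside them: 21 genes of the Y-box, ELAV, CPEB, CELF, poly(A)-binding, Musashi and DAZ-associated groups. Of these 13 had a change above 0 and 8 below, with a median of 0.017 where the median over all genes was -0.0033, and 0 of 21 had an unadjusted p under 0.05. The highest were Pabpc5, a poly(A)-binding protein of the X chromosome, at 0.14 (SE 0.11), and Celf5, a CELF protein of the brain, at 0.10 (SE 0.13). The lowest were Elavl4, a neuronal relative of Elavl1, at -0.12 (SE 0.10), and Celf2, the closest relative of Celf1, at -0.21 (SE 0.13). Celf2 was the only gene of the 21 without overlap between the groups, where 6.91% of all genes had none. It measured 7.14, 7.17 and 6.98 with ATZ and 7.18, 7.54 and 7.21 in control, and its change was -0.098 without control replicate 2. The changes of other relatives lay nearer 0. Pabpc2, a testis form of the poly(A)-binding protein, had a change of 0.027, Ybx1 of 0.023, Cpeb2 of -0.043 and Msi2 of -0.037.

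Among other RNA regulators of germ cells 28 of 30 were measured, with 11 changes above 0, 17 below, a median of -0.01 and 0 with an unadjusted p under 0.05 or without overlap. The list holds Nanos proteins, which silence messages in spermatogonia, the helicase Ddx4, and partners of the members such as Caprin1 and Usp10, which bind G3bp proteins. The highest changes were those of Lin28a, which blocks maturation of let-7 microRNAs, at 0.12 (SE 0.09), and of Tial1, a stress granule protein, at 0.06 (SE 0.08). The lowest were those of Fmr1, a translational repressor bound to polyribosomes, at -0.16 (SE 0.16), and of Dnd1, which protects germ cells and works with Nanos proteins, at -0.13 (SE 0.10). The change of Fmr1 was -0.0083 without control replicate 2, where it measured 9.51 against at most 9.21 on the other arrays. The G3bp partners Caprin1 and Usp10 had changes of -0.027 and -0.08.

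Messages known in mouse germ cells to be stored or bound by such proteins were the third list. Of 16 listed 14 were measured, 4 above 0, 9 below and 1 at 0, with a median of -0.0083 and 0 with an unadjusted p under 0.05. Prm1, a protamine message stored in spermatids, measured 13.75, 13.81 and 13.70 with ATZ and 13.71, 13.76 and 13.70 in control, a change of 0.03 (SE 0.08). The lowest were Prm3 at -0.087 (SE 0.085) and Sycp1, a Cpeb1 target of the synaptonemal complex, at -0.083 (SE 0.13), and the highest was Tex19.1, a germ cell message bound by Dazl, at 0.04 (SE 0.21). Gapdhs, the glycolytic enzyme of sperm, was the only message of the 14 without overlap, where 6.91% of all genes had none. It measured 13.53, 13.49 and 13.43 with ATZ and 13.55, 13.54 and 13.56 in control, a change of -0.067 (interval -0.26 to 0.12). The intervals of all measured genes of these 3 lists lay inside a change of 1.5-fold in either direction.

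**Figure D5:**
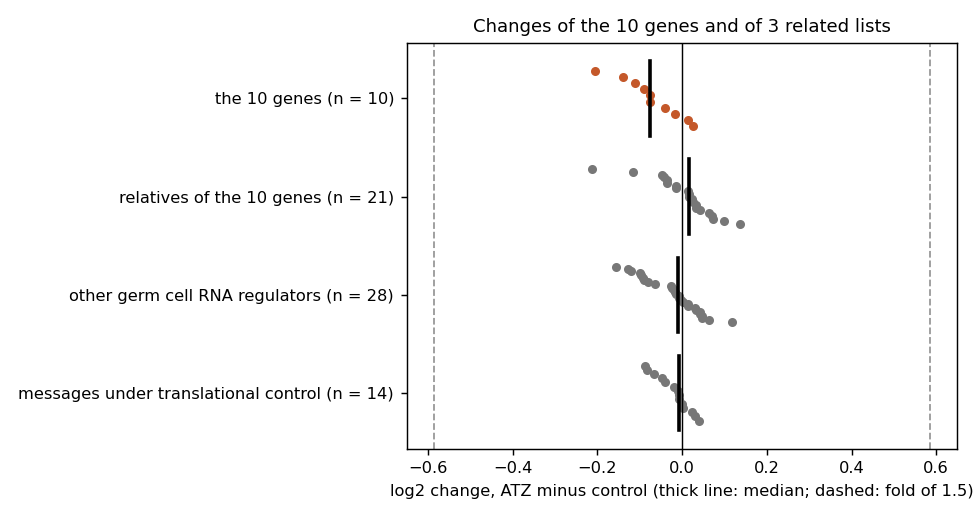
Log2 change between ATZ-treated and control testes (x axis), with a point for each gene and a thick line for the median. The lists (y axis) are the 10 genes, 21 relatives of them, 28 other RNA regulators of germ cells and 14 messages under translational control. All points lie between -0.21 and 0.14, well inside the dashed lines at a fold of 1.5.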

How the data were processed

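Total RNA of 3 ATZ-treated and 3 control testis samples was hybridised to Affymetrix arrays. The log2 values deposited by the authors came from RMA, run in the Affymetrix Expression Console (versions not given in the sources used here). RMA corrects background, forces a common intensity distribution and summarises probes, so differences in total RNA are removed. The 41345 probe sets are rounded to 2 decimals. The annotation gives several symbols to 1820 and none to 16004 of them.

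Groups were compared with lmFit and eBayes of limma 3.58.1 in R 4.3.3, in a two-sided test whose p-values were adjusted by Benjamini-Hochberg across the whole table, and single genes also with an exact permutation test. The methods of the study name a fold of 1.5 and a p under 0.05, with no adjustment mentioned, and these were applied to the unadjusted limma p. The fit was tested on simulated data. Tables and figures were made in Python 3.11.15 with matplotlib 3.10.9, pandas 2.3.3 and numpy 2.4.6.

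The text names all 10 genes, every further G3bp2 probe set, and in each of the 3 lists the 2 highest and 2 lowest changes and any gene with an unadjusted p under 0.05. Other named list genes were chosen after their values were seen. The members and lists were chosen with earlier results of these data known. Some listed genes are not reported here. Alternatives were a replicate block, quantile normalization again, centring, another probe set per gene, other variance models, 2 filters on probe sets, and each array left out.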

Additional observations from a re-analysis of the deposited data

How the results depend on the processing

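Under every alternative 0 of the 10 genes had an adjusted p under 0.05, the lowest being 0.834. At an unadjusted p under 0.05 there were 0 to 2 when arrays were left out in turn. The 2 were Cpeb1 (-0.28) and G3bp1 (-0.29) without control replicate 3. The share of all probe sets with such a p in that fit was not counted. Under every other setting 0 of the 10 genes had an unadjusted p under 0.05. With the replicate number as a block there were 0 as well, the lowest adjusted p was 0.873 and the median change stayed at -0.077. Arrays that share a number were not treated as paired: their deviations had correlations of 0.017, 0.11 and 0.26. The median change of the 10 genes was -0.11 with arrays centred on their medians, -0.054 with quantile normalization again, and ran from -0.13 without control replicate 3 to -0.022 without control replicate 2.

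The changes of Dazl, Cpeb1, Celf1 and G3bp1 stayed below 0 under every alternative. With arrays centred, Boll had a change of -0.017 and Pabpc1 of -0.0033, so the signs of both turned. G3bp2 had 0.093 at the probe set with the largest spread. Leaving out arrays in turn gave -0.0033 to 0.032 for Boll, -0.0017 to 0.048 for Pabpc1, -0.045 to 0.015 for Ybx2, -0.12 to 0.022 for Elavl1 and -0.14 to 0.038 for Msi1. None of these values had passed a threshold. The alternatives for the G3bp2 probe set without a symbol were chosen after seeing the data and gave 0.40 to 0.77.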
